A study of Rattus norvegicus and Ovis aries with 113 samples.

Results

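The frontal cortex of 5 sheep was set against 4 other areas of the neocortex of the same animals. Members were chosen by their labels alone: 5 of the 113 libraries of the series are sheep frontal cortex, and 20 more are motor, prefrontal, posterior parietal and visual cortex, 5 of each. All 25 came from post-pubertal male sheep that received no treatment, numbered 687, 688, 690, 694 and 699, with every area taken from the same side of each brain. Each area was therefore represented once in each animal, and the number pairs the areas. Each library is bulk RNA from a block of tissue, so fewer cells of a type and less RNA per cell cannot be told apart. Where the border between the frontal and the prefrontal dissection ran is not given in the sources used here.

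The neocortex is built from the same layers and the same broad cell classes in every area. Areas differ in the thickness and connections of those layers, which are laid out in development by graded transcription factors and guidance molecules. Motor cortex is known for large layer 5 output neurons, visual cortex for a dense layer 4, and frontal and prefrontal cortex for strong input from monoamine and acetylcholine neurons. The comparison asks how far such areal differences appear in messenger RNA of the whole tissue block.

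Library totals were alike in both groups, at 57.6 M (1000000) counts ± 2.73 (SD, n = 5) in frontal cortex and 57.7 M ± 6.03 (SD, n = 20) in the other areas. FC of sheep 699, PPC of 694 and MC of 687 (FC frontal, PPC posterior parietal and MC motor cortex) stood apart from the rest and are named wherever a result rests on them. The frontal cortex library of sheep 699 and the posterior parietal library of sheep 694 lay at the high end of the first principal component, which held 26.1% of the variance of the 2000 most variable genes. The motor cortex library of sheep 687 lay alone at the end of the second, with 16.1%. Animal took a median of 22.5% of the variance of a gene and area 16.6%, where each would hold 16.7% by its degrees of freedom alone. Animal took the larger share in 60.1% of genes. SLC17A7, the vesicular glutamate transporter that marks cortical excitatory neurons, was present in all 25 libraries, at 166 to 838 CPM (counts per 1000000 counts of the library).

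**Figure D1:**
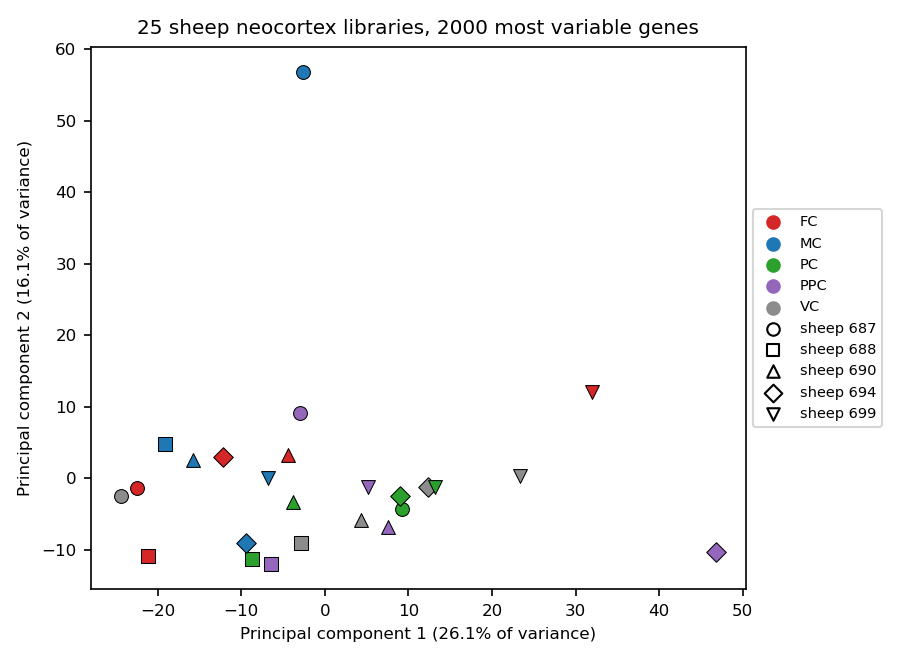
Principal components 1 and 2 (26.1% and 16.1% of variance) of the 25 libraries, from log2 values of the 2000 most variable genes; colour is the area (FC frontal, MC motor, PC prefrontal, PPC posterior parietal, VC visual cortex) and shape the sheep. The areas mix along both axes, with FC of sheep 699 and PPC of sheep 694 far to the right and MC of sheep 687 at the top.

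No gene passed the test between frontal cortex and the mean of the other 4 areas. Of 20045 genes tested, 0 were called (0%) at a Benjamini-Hochberg adjusted p below 0.05 in edgeR's quasi-likelihood test with the animal in the fit. At an unadjusted p below 0.05, 1288 genes passed (6.43%), 667 higher (3.33%) and 621 lower (3.10%) in frontal cortex. limma voom with sample quality weights called 1 gene and DESeq2 44, of which 4 were among the genes edgeR tested (LIN28B, HSPA6, TNFSF8 and the placeholder LOC132658592). Voom also moved with the libraries that stood apart: without FC of 699, MC of 687 and PPC of 694 it called 51 genes, 13 higher and 38 lower, where edgeR called 0. Without PPC of 694 alone voom called 0, so its 1 call, LIN28B, was lost.

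The estimates also bound what was missed. For 17423 genes (86.9%) the 95% interval of the log2 difference lay between -1 and 1, so a 2-fold difference in either direction was outside it. Only 101 genes had an estimate of 2-fold or more. In no gene did the 5 frontal libraries all lie above or all below the 20 others. Frontal cortex was the highest of the 5 areas in every sheep for 3 genes (0.015%), POLE2, a DNA polymerase subunit, and 2 placeholders. It was the lowest in every sheep for 5 genes (0.0249%), BCO1, which cleaves beta-carotene, and 4 placeholders. Orders of this kind also arise by chance among 20045 genes, so these names carry no weight of their own.

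LIN28B, an RNA-binding protein that blocks maturation of let-7 microRNAs, came nearest to the threshold. Its 5 frontal libraries, given here and below in the order of sheep 687, 688, 690, 694 and 699, read 1.19, 0.591, 1.01, 0.642 and 1.28 CPM (scaled by TMM, the trimmed mean of M values). The 20 others ran from 0.0594 to 1.05 CPM with a median of 0.245. Every frontal library lay above 17 of the 20 others, and only prefrontal libraries reached the frontal range. Its log2 fold change was 1.77 ± 0.28 (SE), with an edgeR adjusted p of 0.0732. Against posterior parietal and visual cortex it was 2.66 ± 0.42 and 2.57 ± 0.42, against motor cortex 1.39 ± 0.39, and against prefrontal cortex 0.46 ± 0.38. The gene is scarce, near 1 CPM, and the alternatives put it on both sides of the threshold: voom gave an adjusted p of 0.0292, DESeq2 0.000124, and the range over all alternatives reached 0.9998, with log2 fold changes of 1.48 to 2.21.

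CBLN2 encodes a secreted organiser of synapses whose level in primate frontal cortex is tied to retinoic acid. It read 106, 75.4, 121, 74.8 and 80.8 CPM in frontal cortex, while the other libraries ran from 35.7 to 92.8 CPM with a median of 54.9. All 5 frontal values lay above 17 of the other 20, and frontal cortex was the highest area in 3 sheep. Its log2 fold change was 0.64 ± 0.16 with an unadjusted p of 5.97e-04, and edgeR's adjusted p was 0.744. By area it was 0.58 against motor, 0.49 against prefrontal, 0.91 against posterior parietal and 0.57 against visual cortex.

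**Figure D2:**
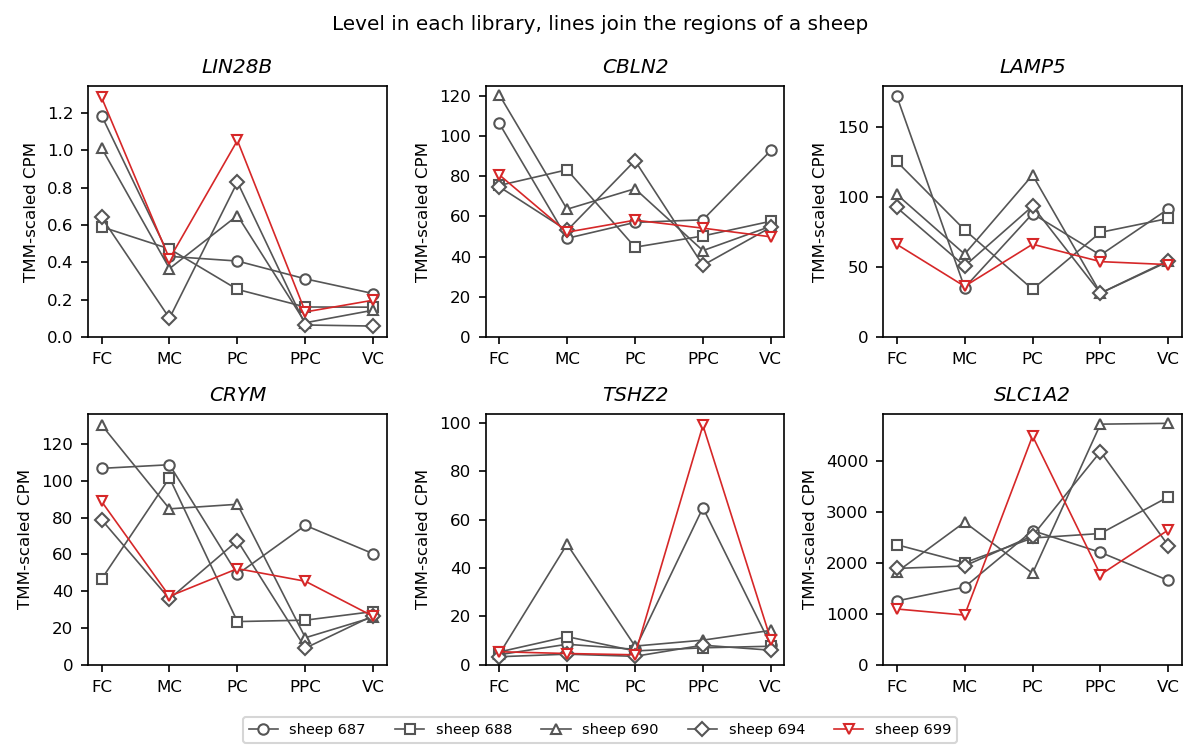
TMM-scaled CPM of 6 genes (linear axes from 0) in each of the 25 libraries, areas on the x axis, lines joining the areas of a sheep and sheep 699 in red. LIN28B is at 0.591 to 1.28 CPM in FC and under 0.5 CPM in every MC, PPC and VC library, and TSHZ2 is low in all 5 FC libraries and reaches 98.9 CPM in PPC of sheep 699.

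Because no gene passed, the genes described next met every condition for being named except the adjusted p: an unadjusted p below 0.05, at least 5 CPM in the higher group, and the same side in all 5 sheep. That form of the rule was chosen after the values were seen. It left 373 higher and 213 lower genes, of which the 12 largest in each direction were taken and 11 higher and 12 lower ones are given, all with an edgeR adjusted p of 0.744. These 23 genes are a description of the largest estimates that had 1 sign in every sheep, and since the conditions select genes that differ, their direction carries no weight of its own.

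On the higher side, CRYM, which binds thyroid hormone in the cytoplasm, read 107, 46.6, 130, 78.9 and 88.8 CPM in frontal cortex against 9.13 to 109 CPM elsewhere, a log2 fold change of 0.99 ± 0.31. LAMP5, which marks a class of inhibitory neurons, read 172, 125, 102, 92.5 and 66.2 CPM against 31.3 to 116 CPM, with a log2 fold change of 0.83 ± 0.22. Frontal cortex was the top area for CRYM in 3 sheep and for LAMP5 in 2, and both ranges overlapped the other areas.

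OPRK1, the kappa opioid receptor, was even across sheep, at 18.6, 20.3, 22.8, 16.5 and 17.2 CPM in frontal cortex. Elsewhere it ran from 4.61 to 22.8 CPM, so that 16 of 20 libraries lay below every frontal one, for a log2 fold change of 0.69 ± 0.25. GRM2, a presynaptic glutamate receptor that damps release, averaged 9.95 CPM ± 3.41 (SD, n = 5) against 5.78 ± 3.10 (SD, n = 20). CNTN3 and ISLR2, cell-surface proteins of axon growth and adhesion, had log2 fold changes of 0.89 ± 0.35 and 0.86 ± 0.31. A wide estimate belonged to TPBG, a membrane glycoprotein of Wnt signalling, at 1.25 ± 0.49. TPBG shows how uneven the animals were, with 24.3 and 29.8 CPM in frontal cortex of sheep 687 and 688 but 5.73, 6.50 and 2.69 CPM in 690, 694 and 699. The remaining 4, ANKRD63, TNFSF4, TMEM196 and OLFML2B, lay between 0.93 and 1.27.

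On the lower side, SLC1A2, the main glutamate transporter of astrocytes, read 1253, 2355, 1819, 1890 and 1096 CPM in frontal cortex and 976 to 4732 CPM elsewhere. Of the 20 other libraries 11 lay above every frontal one, and the log2 fold change was -0.64 ± 0.24. KCNJ10, the potassium channel of astrocytes, averaged 55.8 CPM ± 23.6 (SD, n = 5) against 87.8 ± 32.5 (SD, n = 20), a log2 fold change of -0.64 ± 0.25. GPR4, a proton-sensing receptor of endothelium, averaged 3.18 CPM against 5.28 CPM, and SLC38A5, a glutamine transporter, 6.38 CPM against 10.5 CPM. NOTCH2, PREX2, TRPM3, NKAIN3, GPLD1, ACOT11 and NRK had log2 fold changes from -0.77 to -0.58.

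TSHZ2, a zinc finger transcription factor that marks subsets of cortical neurons, had the largest lower estimate, at -1.36 ± 0.52. It was low in every frontal library, at 4.21, 5.33, 4.37, 3.37 and 5.44 CPM. Of the other libraries 16 lay above all 5, and 3 stood far above, PPC of sheep 699 at 98.9 CPM, PPC of 687 at 64.8 CPM and MC of 690 at 49.8 CPM, while the remaining 17 lay between 3.54 and 14.3 CPM. With posterior parietal cortex out of the mean the estimate was -0.88.

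**Figure D3:**
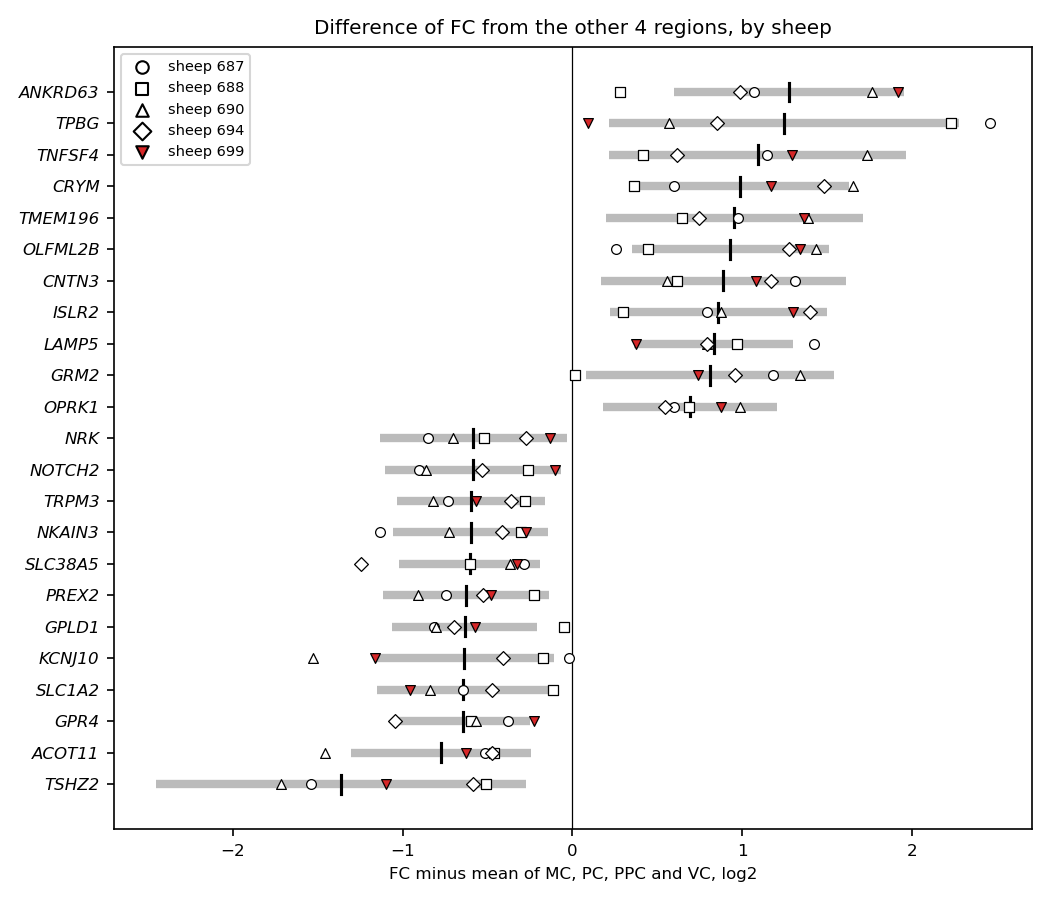
Difference of frontal cortex from the other 4 areas (log2) for the 23 genes; symbols are single sheep, on log2(CPM + 0.5), with sheep 699 in red, black ticks are edgeR log2 fold changes and grey bars their 95% intervals. All symbols of a gene lie on 1 side of 0 because the rule asked for it; the spread between sheep is often as wide as the estimate, as for TPBG from 0.09 to 2.46.

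Taking the areas one at a time showed where frontal cortex stood closest and farthest. These 4 comparisons share the frontal libraries, so their values are given side by side. edgeR called 0 genes in each (0%). At an unadjusted p below 0.05 it passed 590 genes against motor cortex (2.94%), 920 against prefrontal (4.59%), 755 against visual (3.77%) and 4355 against posterior parietal (21.7%). The median absolute log2 difference was 0.12 against motor, 0.15 against prefrontal and visual, and 0.24 against posterior parietal cortex. Estimates of 2-fold or more gave another order. They numbered 430 against motor, 242 against prefrontal, 218 against visual and 596 against posterior parietal cortex. Motor cortex was thus nearest by the median and by the unadjusted count, but not by large estimates. Voom called 0, 0, 1 and 1691 genes in the same order, and DESeq2 46, 35, 33 and 1446.

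The size of the posterior parietal result depended on few libraries. Without PPC of sheep 694, voom called 24 genes instead of 1691 and DESeq2 271 instead of 1446, and edgeR's unadjusted count was 3149 of 20225 (15.6%). Without all 3 libraries that stood apart the counts were 891 by voom and 292 by DESeq2. That PPC library held 1165 summed CPM of endothelial markers, 507 of microglial and 437 of meningeal fibroblast markers, the most of the 20 libraries outside frontal cortex, and 2811 of pan-neuronal markers, the least of all 25. The part these levels had in the counts was not tested.

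For the 11 higher genes, log2 fold changes against prefrontal cortex ran from 0.05 (CNTN3) to 0.83 (ISLR2), and against posterior parietal cortex from 1.13 (LAMP5) to 2.10 (TNFSF4). CRYM, ISLR2 and OLFML2B were nearest to motor cortex, at 0.31, 0.23 and 0.26. Of the 12 lower genes, 9 stood within 0.31 of motor cortex, and 11 were lowest relative to posterior parietal cortex; the exception was GPLD1, at -0.96 against prefrontal and -0.72 against posterior parietal cortex.

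**Figure D4:**
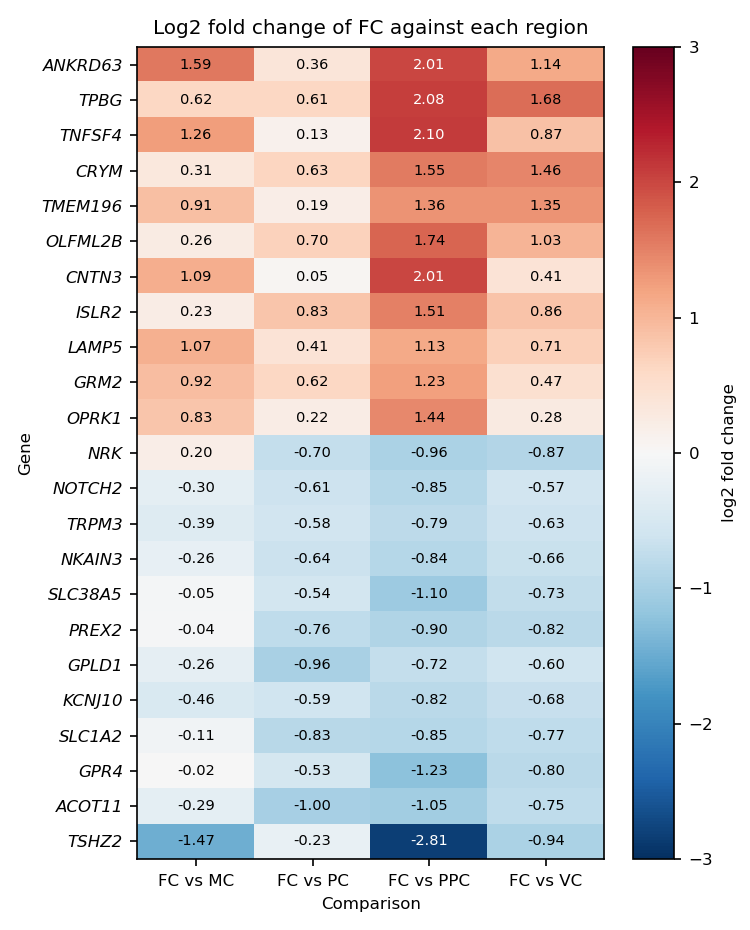
edgeR log2 fold change of frontal cortex against each of the 4 other areas (columns) for the 23 genes (rows), red where frontal cortex is higher and blue where it is lower. The PPC column holds most of the deepest colours, up to 2.10 for TNFSF4 and down to -2.81 for TSHZ2, and the PC column of the upper 11 genes and the MC column of the lower 12 are mostly pale, except for TSHZ2 at -1.47 against MC.

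Against posterior parietal cortex voom called 14 of the 23 genes, 9 higher and 5 lower, beside 8.44% of all genes (4.77% higher and 3.67% lower). Among them were CRYM (adjusted p 0.0246), LAMP5 (0.0183), OPRK1 (0.0219) and GPR4 (0.0130). Without PPC of sheep 694 it called TPBG and GPR4. These genes were chosen on a contrast that includes that area, so the count lends them no support.

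Gene groups are described next by how many members passed an unadjusted p below 0.05 in frontal cortex against the mean of the other 4, beside 3.33% higher and 3.10% lower of all genes, and by the median log2 fold change, which over all genes was -0.001. In none of the 38 groups was a member called by edgeR at the adjusted threshold.

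Layer markers gave little. None of 7 upper layer, 5 layer 4 and 12 layer 5 genes passed, with medians of -0.16, 0.03 and 0.16. RORB, the transcription factor of layer 4, read 1.77, 3.22, 1.56, 4.28 and 2.67 CPM in frontal cortex against 1.58 to 10.8 CPM elsewhere, and lay lower in all 5 sheep (log2 fold change -0.63 ± 0.33, unadjusted p 0.0696). It was -1.03 against visual, -0.96 against prefrontal and -0.12 against motor cortex. RORB did not stand for its group: 3 of the 5 layer 4 genes had positive estimates, up to 0.32. Summed layer 4 markers were above the mean of the sheep's other areas in 3 of 5. Of 12 layer 6 and 6b genes 1 passed, NXPH4, a neurexin ligand of the deepest neurons, and 11 had a positive estimate, with a median of 0.30. By area the median turned, from -0.21 against motor cortex to 0.63 against prefrontal, 0.44 against posterior parietal and 0.38 against visual cortex. NXPH4 read 2.99, 1.66, 2.19, 8.87 and 2.46 CPM in frontal cortex, so sheep 694 stood above the rest, and its log2 fold change was 1.11 ± 0.41. Against motor cortex, where sheep 699 read 8.38 CPM, it was -0.53 ± 0.55.

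The inhibitory neuron group had the most higher members: 6 of 23 passed, all higher, although its median was only 0.11. Apart from LAMP5 and TAC3 they are found in somatostatin-type neurons: NPY and CORT are peptides of such cells, CHODL marks their long-range subset and CRHBP binds corticotropin-releasing hormone. That description was made from the members that passed. NOS1, LHX6 and RELN of the same list did not pass. Over 26 alternative settings their log2 fold changes ran from -0.11 to 0.11, 0.07 to 0.17 and -0.37 to 0.13. A change of the cell class was not tested. NPY read 45.0, 35.2, 82.3, 35.4 and 61.5 CPM in frontal cortex against 17.3 to 53.2 CPM elsewhere (log2 fold change 0.61 ± 0.23). CHODL averaged 2.52 CPM ± 0.43 (SD, n = 5) against 1.67 ± 0.54 (SD, n = 20), and all 5 frontal values lay above 17 of the other 20 (0.62 ± 0.21). CRHBP and CORT had log2 fold changes of 0.51 ± 0.18 and 0.55 ± 0.20.

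The other inhibitory markers did not pass, and their estimates varied. CALB2, a calcium-binding protein of another interneuron subset, read 9.56, 9.58, 44.8, 20.1 and 40.7 CPM in frontal cortex, with a log2 fold change of 0.83 ± 0.43 and frontal cortex higher in 3 of 5 sheep. SST itself was 0.41 ± 0.22, VIP, of another interneuron class, 0.04 ± 0.20, and GAD2, an enzyme of GABA synthesis, -0.09 ± 0.10. PVALB, of fast-spiking neurons, ran from 4.77 to 56.3 CPM over the frontal libraries and was -0.22 ± 0.51. None of 18 tested fast-spiking and large-axon genes passed. Summed over the inhibitory group, frontal libraries held 873, 816, 1200, 782 and 1050 CPM and the others 604 to 945 CPM, above the mean of the sheep's other areas in 4 of 5.

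Excitatory and general neuronal markers showed no member past the threshold. SLC17A7, the vesicular glutamate transporter of cortical excitatory neurons, averaged 533 CPM ± 68.7 (SD, n = 5) against 435 ± 171 (SD, n = 20), with a log2 fold change of 0.35 ± 0.21. Medians were 0.23 over 9 excitatory and 0.22 over 8 pan-neuronal genes. Each of the 8 pan-neuronal intervals lay within 2-fold.

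Among 24 areal patterning and guidance genes 2 passed higher and 3 lower. With posterior parietal cortex out of the mean 1 member passed, and without FC of sheep 699, 4 did. LMO4, a transcriptional cofactor graded across developing cortex, read 244, 210, 329, 214 and 245 CPM in frontal cortex. The other libraries ran from 110 to 286 CPM, 14 of them below every frontal one, and the log2 fold change was 0.45 ± 0.17. EFNA5, an ephrin that guides thalamic axons, was 0.36 ± 0.16. FGFR3, a growth factor receptor that is high caudally in the embryonic cortex and in adult astrocytes, averaged 40.5 CPM ± 12.6 (SD, n = 5) against 55.3 ± 17.3 (SD, n = 20), lower in all 5 sheep (-0.46 ± 0.16). ZBTB20 was -0.38 ± 0.18, and TSHZ2 is given above. NR2F1, the classic caudal factor, was -0.19 ± 0.13.

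Retinoic acid genes had 2 of 18 members pass, CBLN2 and RARA, a retinoic acid receptor, at 0.37 ± 0.16. The median of 0.20 depended on 1 library, and was -0.04 without FC of sheep 699. Of 5 tested genes selective for primate visual or association cortex 1 passed, SLIT1, a repulsive guidance molecule. It averaged 72.9 CPM ± 23.2 (SD, n = 5) against 52.9 ± 34.8 (SD, n = 20), with 1.71 against posterior parietal and -0.04 against motor cortex. No member passed without FC of sheep 699 or with posterior parietal cortex out of the mean, and the group median of 0.56 was 0.22 and 0.27 in turn.

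Of 36 receptors for monoamines and acetylcholine 5 passed, all higher, with a median of 0.08. They were ADRA1B, an adrenergic receptor, at 0.61 ± 0.20, CHRM1 and CHRM4, muscarinic receptors, at 0.36 ± 0.17 and 0.64 ± 0.28, HTR1A, a serotonin receptor, at 0.54 ± 0.20, and DRD1, a dopamine receptor, at 0.53 ± 0.24. ADRA1B read 3.21, 2.22, 2.32, 2.43 and 2.33 CPM in frontal cortex, and 18 of the 20 other libraries lay below all of these. HTR1A averaged 11.2 CPM ± 2.16 (SD, n = 5) against 7.79 ± 2.23 (SD, n = 20). Without FC of sheep 699, 2 of the group passed in place of 5, and 2 with posterior parietal cortex out of the mean. Against posterior parietal cortex alone 11 passed higher and 1 lower (33.3%, beside 21.7% of all genes). Against motor cortex 3 passed higher and 4 lower (19.4%, beside 2.94%). Against prefrontal cortex 0 passed, and against visual cortex 0 higher and 1 lower (2.78%, beside 3.77%).

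Among amino acid receptors, 2 of 25 glutamate receptor genes passed, GRM2 and GRIN1, the obligate NMDA receptor subunit, at 0.37 ± 0.17, with a group median of 0.19. Of 14 GABA-A subunits 1 passed, GABRA3, at 0.49 ± 0.22, with a median of 0.27. Both groups were nearer to the other areas than to posterior parietal cortex, with medians of 0.40 and 0.62 against that area and 0.07 each against visual cortex. With posterior parietal cortex out of the mean no member of either group passed, and the medians were 0.02 and 0.12.

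Neuropeptide genes had 5 of 22 members pass, all higher: NPY, CORT, TAC3, and the granule proteins SCG2 and VGF. SCG2 averaged 392 CPM ± 109 (SD, n = 5) against 286 ± 114 (SD, n = 20), a log2 fold change of 0.50 ± 0.22, and VGF was 0.48 ± 0.22. The group median was 0.33, and 3 members passed with posterior parietal cortex out of the mean, 2 without FC of sheep 699. Of 16 tested genes of the reproductive axis, which the series as a whole turns on, TAC3 passed, a tachykinin of the hypothalamic pulse generator that cortical interneurons also make, with a log2 fold change of 0.54 ± 0.24 and frontal cortex higher in 3 of 5 sheep. The estrogen receptor ESR1 had a log2 fold change of -0.03 ± 0.41.

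All 9 astrocyte genes had negative estimates, with a median of -0.34; SLC1A2 and SLC1A3, both glutamate transporters, passed, and GFAP, the astrocyte filament, was -0.32 ± 0.22. Summed astrocyte markers were 4656, 7288, 7239, 6380 and 5613 CPM in frontal cortex, below the mean of the sheep's other areas in all 5. The others ran from 4910 to 12572 CPM, so the ranges overlapped. The median was -0.30 without the 3 libraries that stood apart and -0.29 with posterior parietal cortex out of the mean. No astrocyte gene passed without FC of sheep 699. Astrocytes were not alone in this pattern. All 7 oligodendrocyte precursor genes had negative estimates too, with 0 past the threshold and a median of -0.22. Their summed frontal level was above the mean of the sheep's other areas in 0 of 5. With posterior parietal cortex out of the mean that median was -0.12. PTPRZ1, a receptor of the neural matrix made by glia, averaged 173 CPM ± 26.0 (SD, n = 5) against 242 ± 70.9 (SD, n = 20), with 15 of 20 other libraries above every frontal one.

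All 9 microglial genes were negative too, and 4 passed: CX3CR1, a chemokine receptor, P2RY12, which senses ADP, CSF1R, a survival receptor, and ITGAM, an integrin. Their log2 fold changes ran from -0.41 to -0.28. They differed by area, with a group median of 0.27 against motor and -0.66 against posterior parietal cortex, and none passed without FC of sheep 699 or with posterior parietal cortex out of the mean. Of 8 endothelial genes, all negative, FLT1, a growth factor receptor, and SLCO1C1, a thyroid hormone transporter, passed; the median was -0.44, at 0.33 against motor and -1.04 against posterior parietal cortex. Without FC of sheep 699, 5 endothelial genes passed and the median was -0.69, while with posterior parietal cortex out of the mean none passed and the median was -0.27.

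Mural and meningeal markers stood far higher in 1 frontal library. Pericyte and smooth muscle markers summed to 228, 235, 313 and 239 CPM in frontal cortex of sheep 687, 688, 690 and 694 and to 1596 CPM in that of 699, where MYH11, the smooth muscle myosin, read 526 CPM against 6.89 to 37.2 CPM in the other 4. Meningeal fibroblast markers were 35.1 to 88.4 CPM in those 4 and 579 CPM in 699. The medians of both groups were -0.24 and -0.03 with that library and -0.55 and -0.98 without it. Oligodendrocyte markers overlapped between frontal cortex and the rest, at 2238 to 10845 summed CPM against 1586 to 35159 CPM, with a median of 0.03 and no member past the threshold. That median joins opposite values by area, -0.89 against motor and 0.76 against prefrontal cortex.

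**Figure D5:**
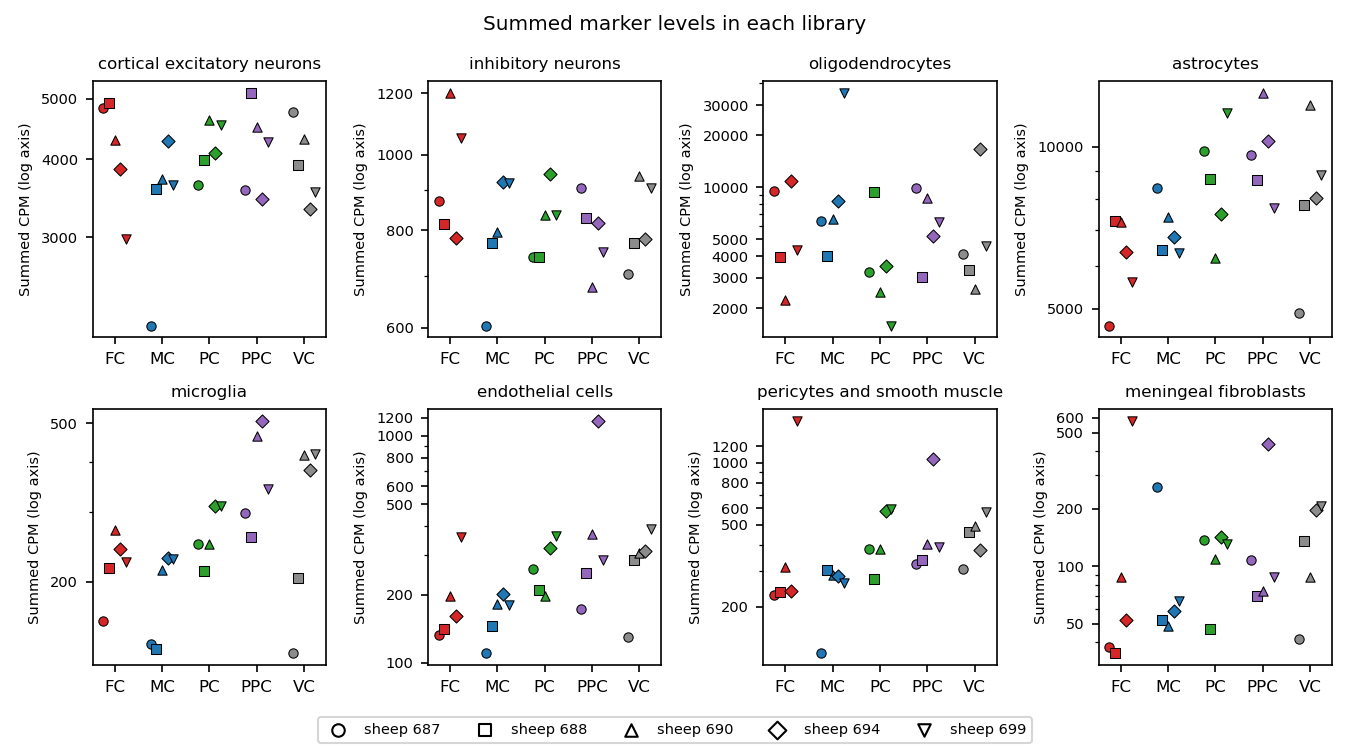
Summed TMM-scaled CPM (log axes) of 8 cell type marker groups in each library, areas on the x axis, colour the area and shape the sheep. Astrocyte sums of FC (4656 to 7288 CPM) lie at the low end of the other areas, FC of sheep 699 tops pericytes and smooth muscle (1596 CPM), and PPC of sheep 694 tops endothelial cells (1165 CPM).

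None of 18 immediate early genes, which neuronal activity induces, passed, and 15 had positive estimates, but their median turned from 0.40 to -0.22 without FC of sheep 699, in which FOS, the best known of them, read 110 CPM against 13.8 to 32.0 CPM in the other 4 frontal libraries. PPC of sheep 694 was as high, at 112 CPM. Of 15 clock genes NR1D1, a repressor of the clock loop, passed at 0.30 ± 0.10, with the 15 intervals all within 2-fold. Among 14 tested chaperones HSPH1, DNAJB1 and HSPA5 passed, at 0.41, 0.24 and 0.15, and 12 had positive estimates. LDHA, which makes lactate, was the 1 member past the threshold of 11 hypoxia genes, at 0.54 ± 0.25. With posterior parietal cortex out of the mean no chaperone or hypoxia gene passed. Without FC of sheep 699, 4 chaperones and 1 hypoxia gene passed. The chaperone median was -0.04 against motor and 0.20 against posterior parietal cortex.

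Markers of other brain tissue gave few members past the threshold. None of the claustrum, dentate gyrus, thalamus, cerebellum, choroid plexus or ependymal genes passed. Choroid plexus markers summed to 3.99 to 47.8 CPM in frontal cortex and to 768 CPM in MC of sheep 687. Of 5 tested olfactory bulb genes TH, the enzyme that starts dopamine synthesis, passed higher, at 0.622 CPM in frontal cortex and a log2 fold change of 1.25 ± 0.55, and the group median was 0.35. Of 4 hindbrain genes SLC6A2, the noradrenaline transporter, passed higher at 1.68 ± 0.69 and HOXB2, a hindbrain transcription factor, lower at -0.52 ± 0.25, both under 0.5 CPM on average in frontal cortex. Of 9 tested striatal genes 2 passed higher, DRD1 among them, while PDE10A and PPP1R1B, both more abundant in striatum, were 0.00 ± 0.18 and -0.15 ± 0.19.

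The mean of the other areas hides which of them matters. With posterior parietal cortex left out of it, 390 genes passed at an unadjusted p below 0.05 (1.95%) in place of 1288. With motor cortex left out 2605 passed (13.0%), with prefrontal 1259 (6.28%) and with visual 1318 (6.58%). edgeR's calls at the adjusted threshold were 0 in each case but one, the mean without prefrontal cortex, where LIN28B was called. Set against the mean of the remaining 4 in the same way, motor cortex had 1 gene called by edgeR (SEMA3E, 0.00499%), posterior parietal cortex 133 (0.664%), and prefrontal and visual cortex 0 each. At an unadjusted p below 0.05 the same comparisons passed 3062 genes for motor (15.3%), 4238 for posterior parietal (21.1%), 845 for prefrontal (4.22%) and 480 for visual cortex (2.39%). The 133 fell to 2 without PPC of sheep 694.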

How the data were processed

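The authors deposited raw counts per gene, 1 column per library, for 31304 sheep genes. Per the labels' protocols and the design text of the series, stranded mRNA libraries were read from both ends, trimmed with Trimmomatic 0.39, aligned with STAR 2.7.5a to ARS-UI_Ramb_v3.0 and counted with Rsubread 2.20.0. The sources used here give neither the strand nor the multi-mapping setting, so genes with near-identical copies or antisense neighbours are uncertain. The 25 columns were matched to samples by name, and 30 other sheep columns in the same tables were not used.

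The test was edgeR 4.0.16 (R 4.3.3) on these counts, scaled by TMM and filtered for low counts by edgeR's default over areas (20045 genes left), with area and animal as terms, the quasi-likelihood test, Benjamini-Hochberg adjustment over all genes tested and a threshold of 0.05. The main contrast was frontal cortex minus the mean of the 4 other areas. Standard errors and 95% intervals were computed back from the test. Levels are TMM-scaled CPM, and differences within a sheep are of log2(CPM + 0.5). Alternatives were limma 3.58.1 (voom with quality weights), DESeq2 1.42.0, other factors and filters, summed areas, and left-out sheep, areas or libraries; leaving out single libraries, robust dispersion and their combinations with voom or DESeq2 were chosen after seeing the data. Scripts were tested on simulated data.

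The animals pair the areas by their labels. Deviations from the area means correlated with a median r of 0.241 over 50 pairs of libraries of the same sheep (range -0.268 to 0.614). Over 200 pairs of different sheep and areas it was -0.0513 (range -0.555 to 0.561), so the ranges overlapped. Taking out the area means by itself pushes the second value below 0 when the first is above it. With area and animal in the fit, each p-value sets a difference against the spread left over all 25 libraries of the 5 animals. That spread is shared by the 5 areas, so the test is not a paired test on 5 frontal differences alone. No 2 libraries of an area agreed within sampling noise (smallest chi-square per gene 50.4 over 50 pairs).

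Areas, comparisons and gene groups were chosen with earlier results of these data known. The rule named 12 genes per direction by size of change among called genes with at least 5 CPM, the same side in all 5 sheep and no placeholder symbol. No gene met it, so an unadjusted p below 0.05 replaced the adjusted one; 1 of the 24 genes it then named, and 2 single genes of the groups, are not reported here. In gene groups with no called member, members at an unadjusted p below 0.05 or of high level are named; other single genes in them were chosen after their values were seen. No sheep sequence or annotation was used here.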

Additional observations from a re-analysis of the deposited data

Results flagged for a closer look

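Of 71 values tested for 1 library far from the other 4 of frontal cortex, 2 stood out, both in sheep 699. Chance sets apart about 1 in 20 groups of this size. HSPA6, a strictly heat-inducible chaperone, read 13.95 CPM there and 2.11 to 2.62 CPM in the other 4 frontal libraries. Pericyte and smooth muscle markers summed to 1596 CPM there and to 228 to 313 CPM in the other 4. Without that library the log2 fold change of HSPA6 was 0.63 in place of 1.22.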

How the results depend on the processing

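Frontal cortex against the mean of the other 4 areas gave 0 calls in edgeR with other factors, filters and robust dispersion, with the areas summed, and without any 1 sheep or library that stood apart. It gave 1 (LIN28B) with the mean without prefrontal cortex and by voom, and 44 by DESeq2. Without PPC of sheep 694 voom gave 0 and DESeq2 41, and without the 3 libraries that stood apart voom gave 51 and DESeq2 34.

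The animals form a replicate block. With no replicate block the count was 0, with 884 genes at an unadjusted p below 0.05. For posterior parietal cortex against the rest the count was 0 with no replicate block in place of 133, and for motor cortex 35 in place of 1.

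DESeq2 gave 46 against motor, 35 against prefrontal, 1446 against posterior parietal and 33 against visual cortex. Voom gave 1691 against posterior parietal and 1 against visual cortex. Against posterior parietal cortex voom gave 24 and DESeq2 271 without PPC of 694, and 891 and 292 without the 3 libraries. Leaving out each sheep gave 0 to 1 against motor and 0 to 1 against posterior parietal cortex; sheep 688 decided both.

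For motor cortex against the rest, no low-count filter gave 2, DESeq2 622, voom 5, left-out sheep 0 to 6, and leaving out MC of 687 or all 3 libraries 0. For prefrontal cortex DESeq2 gave 39 and left-out sheep 0 to 4. For posterior parietal cortex upper quartile factors gave 253, no filter 20, the stricter filter 341, DESeq2 1425 and voom 390. There left-out sheep gave 0 to 116, leaving out FC of 699 gave 244, MC of 687 347, PPC of 694 2 and all 3 libraries 7, and 21 also reached 2-fold. For visual cortex DESeq2 gave 38, leaving out MC of 687 gave 1 and all 3 libraries 2.

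Genes with frontal cortex highest or lowest in every sheep numbered 5 in place of 8 with RLE or upper quartile factors. LIN28B, CBLN2 and the 23 named genes kept the sign of their estimates under every setting. The settings reuse the same libraries, and the 23 were chosen for 1 sign in all 5 sheep. LIN28B and CBLN2 were among the genes of lowest p. Their kept signs therefore lend no support. FOS, MYH11, PVALB, VIP, ESR1, PDE10A and PPP1R1B, none of which passed, changed sign in at least 1. The causes were not tested. The number of sheep, 5, limits the precision.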
